A study of Mus musculus with 9 samples.

Results

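The cells labelled Leydig and the cells labelled Sertoli were sorted from fetal mouse testes, and their RNA was compared gene by gene. The comparison takes 6 of the 9 libraries of the series, replicates A, B and C of each of these populations, chosen by their labels. All libraries came from Sf1-eGFP mice, which carry a green fluorescent reporter driven by regulatory sequence of Nr5a1, the gene for the steroidogenic factor SF1. Gonads were taken at 12.5 days post coitum, sexed by the presence of testis cords, and depleted of germ and endothelial cells with an antibody to CD31 before sequencing. No further treatment or allele separates the groups. Each RNA sample pooled about 10 sorts made on different days with 4 to 10 litters per sort, so a library is an average over many embryos. How the sorter's gates were set is not stated in the sources used here. The protocol names 2 separate pools per population and their mixture. Since replicates A and B carry the names of the pools, C was treated as the mixture, so tests used A and B (n = 2 per population) and C served as a check. Another population, labelled Interstitial, entered the same fit and is mentioned only where it places a Leydig or Sertoli value.

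Sertoli cells form the testis cords, enclose the germ cells, and secrete anti-Müllerian hormone and the hedgehog ligand DHH. Fetal Leydig cells lie in the interstitium between the cords, take up cholesterol and turn it into androgens. In the mouse fetus Leydig cells make mainly androstenedione, and Sertoli cells carry the HSD17B enzymes that convert it to testosterone. The remaining interstitium holds stromal progenitors, vessels, macrophages and the covering mesothelium.

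Reads in genes numbered 33.21 to 39.24 M per library, and the 2 ribosomal RNA genes of the mitochondrial genome took 15.8 to 18.2% of them. A count of 0 allows up to 3 reads, 0.0764 to 0.0903 counts per M reads in genes (CPM), for counting error only. CPM below are normalised for library composition by the trimmed mean of M values. Leydig replicates A and B differed 2-fold or more in 94 genes of at least 5 CPM, with A the higher in 5 of them, and C lay between them in 91. The Sertoli replicates did so in 27 genes, and C lay between A and B in all 27. Leydig replicate B stood apart in markers of other cells. Summed germ cell markers were at 125, 405 and 196 CPM in Leydig A, B and C against 178, 124 and 163 CPM in Sertoli, and Dazl, a germ cell RNA-binding protein gene, was at 22.6, 99.8 and 44.5 CPM against 37.7, 25.8 and 38.7 CPM. Summed erythroid markers were at 166, 589 and 253 CPM against 166, 472 and 247 CPM, high in the B libraries of both populations, as were summed immediate early genes at 1654, 2531 and 1890 CPM against 1840, 2759 and 2136 CPM. The part of these genes in the results below was not tested. In bulk RNA fewer cells of a type and less RNA per cell cannot be told apart.

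Of 18048 genes tested, 6762 were called (edgeR's quasi-likelihood test, Benjamini-Hochberg adjusted p under 0.05), which is 37.5% of them. Leydig was the higher in 3053 (16.9%) and Sertoli in 3709 (20.6%). The list counts below are to be read against these shares. With library size alone in place of composition scaling, the median of all genes moved from -0.005 to 0.097 on the log2 scale, and Leydig was the higher in 58.8% of the calls instead of 45.1%. For the lists below that setting is given again where it moves a count by over 1.5 times or turns the sign of a median, and for some others. Some runs left out 1 Leydig or Sertoli library, so that population kept a single library and the spread came from the others. Calls gained or lost in those runs are descriptions only. The calls held in replicate C, which took no part in the test: 3031 of the 3053 Leydig calls (99.3%) and 3680 of the 3709 Sertoli calls (99.2%) had the same sign there. C shares its RNA with A and B, so this is a check of the libraries and not of other embryos.

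**Figure D1:**
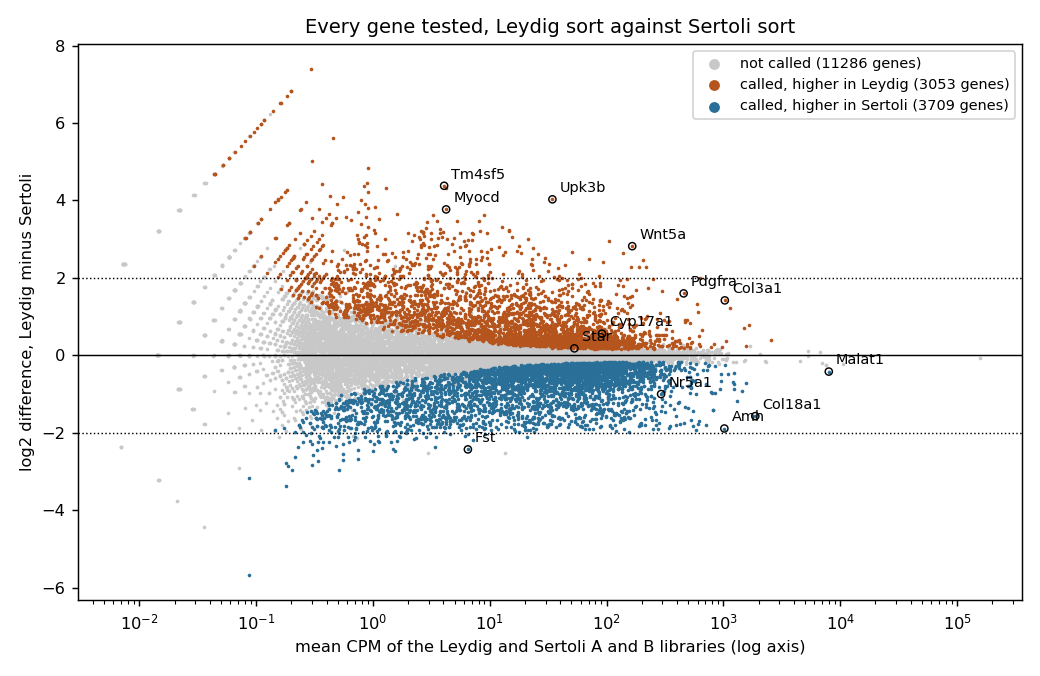
Each point is a gene, with the mean CPM of the Leydig and Sertoli A and B libraries on a log axis and the log2 difference (Leydig minus Sertoli) on the other axis. Orange marks the 3053 genes called higher in Leydig, blue the 3709 called higher in Sertoli and grey the rest, dotted lines stand at 4-fold, and the slanted rows at the far left are genes with few or no reads. Orange points reach far past the upper line, while blue points above about 1 CPM stop close to the lower one.

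The sizes of the differences were not mirror images. With a floor of 5 CPM in the population that was higher, 584 were called 2-fold or more higher in Leydig and 707 in Sertoli. At 4-fold or more the counts were 130 and 9, and at 6-fold or more 61 and 0. The largest Sertoli-side value of such a gene was 2.43 on the log2 scale and the largest Leydig-side value 4.38. Genes called at least 2-fold higher in Leydig (7.18% of those tested) held 4.2% of the nuclear-gene CPM in Leydig and 1.38% in Sertoli. Those called at least 2-fold higher in Sertoli (6.54%) held 3.4% in Leydig and 8.51% in Sertoli.

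**Figure D2:**
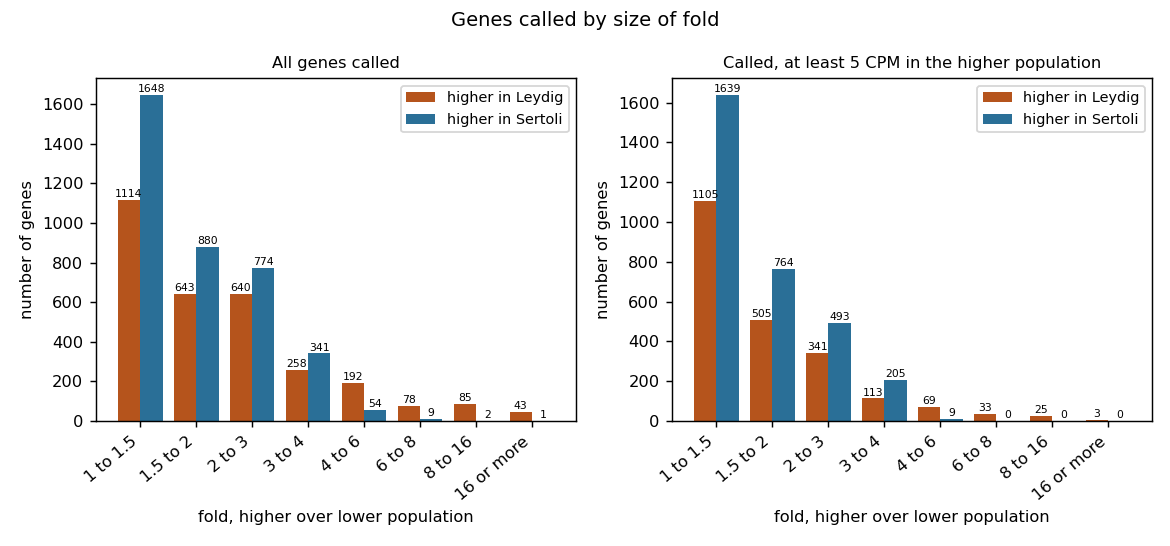
Bars count the genes called in each range of fold between the populations, for all genes called and for those that reach 5 CPM in either population, with orange for Leydig and blue for Sertoli. Blue bars are the taller up to 4-fold, and past 4-fold the right panel holds 130 Leydig genes and 9 Sertoli genes.

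The secreted and enzymatic products of Sertoli cells were higher in Sertoli almost without exception. Of 26 such genes tested 25 were higher in Sertoli, with a median log2 difference of -1.73 against -0.005 for all genes tested. Amh, the gene for anti-Müllerian hormone, was at 460, 425 and 446 CPM in Leydig A, B and C and at 1548, 1638 and 1457 CPM in Sertoli, a log2 difference of -1.89 ± 0.09 (SE, edgeR adjusted p 2.32e-06). Dhh, the hedgehog ligand gene, was at 116, 119 and 118 CPM against 428, 427 and 398 CPM (-1.90 ± 0.08, adjusted p 1.35e-06). Neither gene had a Leydig library near a Sertoli one. The beta-defensin gene Defb19 had the largest difference of the group, at 72.3, 57.5 and 72.2 CPM against 283, 211 and 223 CPM (-1.97 ± 0.15, adjusted p 1.61e-05). Cst9, a cystatin gene, was at 109, 106 and 104 CPM against 414, 368 and 377 CPM (-1.91 ± 0.08, edgeR adjusted p 1.4e-06). Hsd17b3, which makes testosterone from androstenedione, was at 28.7, 27.3 and 30.6 CPM against 109, 95.5 and 106 CPM (-1.91 ± 0.10, adjusted p 3.04e-06). The exception was Ptgs1, a prostaglandin synthase gene named after its values were seen, which was higher in Leydig at 2.95, 4.18 and 3.3 CPM against 1.43, 0.909 and 1.59 CPM (1.56 ± 0.25, adjusted p 0.0014).

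Although lower, Sertoli products were plainly present in the Leydig libraries, many of them at a similar share of their Sertoli level. The 25 genes stood in Leydig at 26.3 to 58% of the Sertoli level, with a median of 30.6% and quartiles of 29.1 and 34.7%. For the 12 Sertoli transcription factors called higher in Sertoli the shares were more spread, 21.6 to 85.9%, with quartiles of 29.1, 42.4 and 58.5%. A narrower range was seen for all genes with at least 20 CPM in Sertoli and no more than 5% of that level in Interstitial. There were 37 such genes, and Leydig held 23.7 to 34.1% of their Sertoli level, with a median of 29% and quartiles of 27.6 and 30%. Over all 450 genes called 2-fold or more higher in Sertoli with at least 20 CPM there, the lowest share was again that of the protease precursor gene Ctrb1, 23.7%, which was at 8.24, 7.67 and 8.93 CPM in Leydig and 35.3, 31.8 and 29.9 CPM in Sertoli. Their quartiles were 33.4, 39.9 and 45.1%. In the other direction, 305 genes of at least 20 CPM were called 2-fold or more higher in Leydig, and the quartiles of their Sertoli level as percent of Leydig were 29, 37.1 and 42.9%. The lowest of these was 5.96%, in Upk3b. The 2-fold filter bounds the upper end of the shares of the 450 and of the 305 genes. The 25 and the 12 genes were limited to those called higher in Sertoli, which bounds their shares too. These shares are descriptions, and the 37 genes were chosen after the values were seen.

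**Figure D3:**
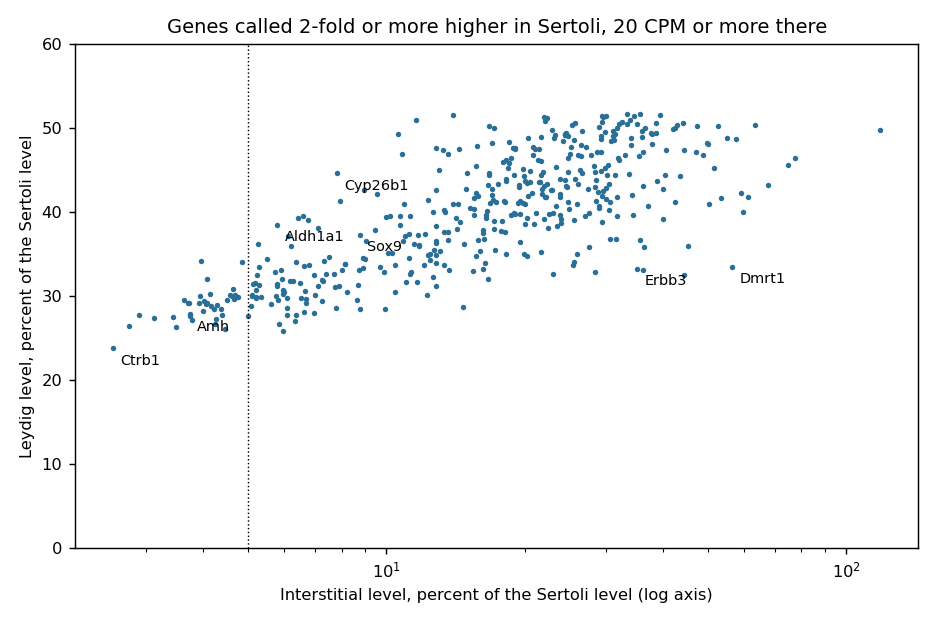
Each point is 1 of the 450 genes called 2-fold or more higher in Sertoli with at least 20 CPM there, with its Interstitial level (log axis) and its Leydig level as percent of its Sertoli level. Left of the dotted line at 5% the Leydig level lies between 23.7 and 34.1%, and it spreads up to 51.5% further right. The 2-fold filter sets the upper end of that spread.

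Outside that list, genes with other roles led the Sertoli side. Fst, the gene for the activin antagonist follistatin, had the largest difference among called genes that reached 5 CPM (-2.43 ± 0.39, adjusted p 0.00126), but its Sertoli libraries were far apart at 15.5, 6.28 and 11.8 CPM against 2.29, 1.87 and 2.03 CPM in Leydig. The homeobox gene Irx3 (-2.37 ± 0.25), the sodium-proton exchanger gene Slc9a2 (-2.18 ± 0.18) and the organic cation exporter gene Slc47a2 (-2.12 ± 0.19) were also among the largest. The MHC class II gene H2-Aa was at 1.81, 1.59 and 1.19 CPM against 5.89, 7.01 and 6.17 CPM (-1.97 ± 0.19). By difference in CPM, the nuclear RNA gene Malat1, the collagen XVIII gene Col18a1, Amh and the cadherin family gene Fat1 led. Col18a1 was at 946, 984 and 941 CPM against 2576, 2984 and 2585 CPM, again with no overlap.

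Transcription factors of the Sertoli lineage were mostly, not uniformly, higher in Sertoli, 12 of 17 against 4 higher in Leydig, with a median log2 difference of -0.82. Sox9, which drives Sertoli differentiation, was at 48.6, 52.8 and 54 CPM in Leydig and 115, 157 and 130 CPM in Sertoli (-1.47 ± 0.15, adjusted p 0.000108). Its relatives Sox8 (-1.80 ± 0.08) and Sox10 (-1.90 ± 0.15) and the sex-determining gene Dmrt1 (-1.62 ± 0.12) were also higher in Sertoli. Sry, the Y-linked testis-determining gene, named here after its values were seen, was at 0.181, 0.259 and 0.406 CPM against 0.926, 1.11 and 1.02 CPM (-2.23 ± 0.37, adjusted p 0.00154). Nr5a1 itself was at 210, 188 and 201 CPM in Leydig and 384, 387 and 365 CPM in Sertoli (-1.0 ± 0.07, adjusted p 1.34e-05), and Wt1 differed by -0.64 ± 0.06. Lhx9, a LIM homeobox gene needed for gonad formation, was higher in Leydig at 255, 223 and 252 CPM against 60.9, 58.7 and 60.7 CPM (1.96 ± 0.08, adjusted p 1.21e-06), as were Emx2 (1.03 ± 0.08), Six4 (0.81 ± 0.16) and the Polycomb gene Cbx2 (0.30 ± 0.07). The Cbx2 call was lost without Sertoli replicate B (0.25, adjusted p 0.0624).

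For the genes that define fetal Leydig cells, a higher level in the libraries labelled Leydig was not called with A and B together. Of 18 genes of steroid synthesis 7 were called higher in Sertoli and 0 in Leydig. That is 38.9%, near the 37.5% of all genes. The median log2 difference was -0.08, or 0.02 with library size alone. The 7 included Hsd17b3 and Hsd17b1, which the Sertoli product list also holds, and Fdxr, the reductase that feeds electrons to mitochondrial steroid enzymes (139, 115 and 126 CPM against 247, 244 and 231 CPM, -0.99 ± 0.09, adjusted p 3.66e-05). Star, which carries cholesterol into mitochondria, was at 70.3, 44 and 60.8 CPM in Leydig and 50.6, 47.1 and 48 CPM in Sertoli (0.18 ± 0.19, adjusted p 0.489). Cyp17a1, the enzyme of the androgen branch, was at 151, 69.5 and 121 CPM against 78.5, 66.5 and 78.4 CPM (0.56 ± 0.33, adjusted p 0.222). Cyp11a1, the side-chain cleavage enzyme, was at 74, 33.8 and 62.9 CPM against 52.7, 41.4 and 44.5 CPM (0.15 ± 0.37, adjusted p 0.786). For Star and Cyp11a1 Leydig B lay below all 3 Sertoli libraries while Leydig A and C lay above them, so the groups overlapped. The same held for Hsd3b1 (143, 83.8 and 126 CPM against 112, 91 and 104 CPM). The luteinising hormone receptor gene Lhcgr was at 8.76, 4.84 and 9.1 CPM against 5.69, 4.17 and 4.88 CPM, and the hormone gene Insl3 did not exceed 0.814 CPM in any of the 6 libraries.

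These values depended on which library was left out. With a single Leydig library left, the gap between Leydig A and B no longer counts in the spread, so only log2 differences are given. Without Leydig replicate B Star was at 0.53, Cyp17a1 at 1.06, Hsd3b1 at 0.49 and Lhcgr at 0.83. Without Leydig replicate A Star was at -0.19, Cyp17a1 at -0.10, Hsd3b1 at -0.32 and Lhcgr at -0.07, and the list's median was -0.39. Without Sertoli replicate A that median was -0.19, and without Sertoli replicate B Cyp11a1 was at -0.01 and Hsd3b1 at -0.03. Cyp17a1 was called with the replicate block (0.47, edgeR adjusted p 0.0365) and with no low-count filter (0.60, adjusted p 0.00028). With all 9 libraries Cyp17a1 (0.61, adjusted p 0.0305) and Lhcgr (0.62, adjusted p 0.0181) were called. That run counts C, treated here as a mixture of A and B, as a further replicate, so its p-values come out too small. Against the Interstitial libraries both sorts were high: Star was at 12.2 and 10.2 CPM and Cyp17a1 at 21 and 12.3 CPM in Interstitial A and B, below every Leydig and Sertoli library.

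Other markers of fetal Leydig cells split. Of 16 tested, 6 of which are the genes just described, 4 were higher in Leydig and 3 in Sertoli. That is 43.8% called, against 37.5% of all genes. The median was 0.17, and -0.15 without Leydig replicate A. The higher ones were Dlk1, a non-canonical Notch ligand (96.4, 78.9 and 99.9 CPM against 26.1, 26.3 and 24.3 CPM, 1.70 ± 0.11), the adhesion gene Vcam1 (1.23 ± 0.14), the corticotropin receptor gene Mc2r (7.04, 5.25 and 5.87 CPM against 3, 2.76 and 3.29 CPM, 1.05 ± 0.20) and the prolactin receptor gene Prlr (0.79 ± 0.18). Dlk1 also marks stroma, and Interstitial had more of it than Leydig, at 172 and 146 CPM. The lower ones were the aldo-keto reductase gene Akr1b7 (-1.72 ± 0.23), Gpr37 (-1.39 ± 0.07) and the lipoprotein receptor gene Scarb1 (-0.46 ± 0.11). The Prlr call was lost without Sertoli replicate B (0.71, adjusted p 0.0819), and the Scarb1 call without Leydig replicate B (-0.23, adjusted p 0.0616), Sertoli replicate A (-0.48, adjusted p 0.0598) or Sertoli replicate B (-0.44, adjusted p 0.077). Without Leydig replicate B the median of the 16 was 0.59, and without Sertoli replicates A and B it was 0.54 and 0.06.

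**Figure D4:**
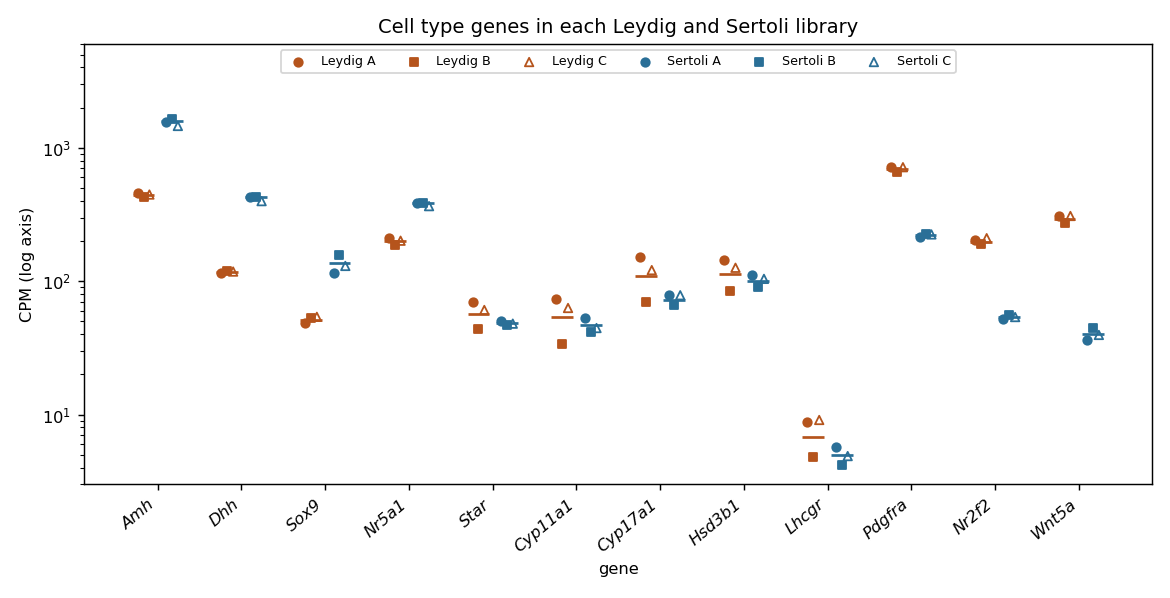
Points give the CPM (log axis) of 12 cell type genes in Leydig (orange) and Sertoli (blue) libraries, circles for A, squares for B and open triangles for C, and lines give the mean of A and B. Amh, Dhh, Sox9 and Nr5a1 lie higher in every Sertoli library and Pdgfra, Nr2f2 and Wnt5a in every Leydig library, while Star, Cyp11a1 and Hsd3b1 overlap and the Leydig squares lie lowest.

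Transcription factors of interstitial stroma lay mostly on the Leydig side, with 29 of 35 called there against 1 on the Sertoli side and a median log2 difference of 1.20. Nr2f2, the nuclear receptor gene COUP-TFII of interstitial progenitors, was at 204, 191 and 210 CPM in Leydig and 52.4, 56.2 and 53.8 CPM in Sertoli (1.82 ± 0.07, adjusted p 1.21e-06). Tcf21, a repressor of Nr5a1 in the gonad, was at 101, 88.7 and 104 CPM against 22.2, 21 and 20.8 CPM (2.09 ± 0.09, adjusted p 1.76e-06). No Leydig library of these genes came near a Sertoli one. Hand2 (3.19 ± 0.24) and Meis2 (2.06 ± 0.10) were higher in Leydig as well, and both were higher still in Interstitial. The exception was Runx1, a factor of supporting cells, at 7.07, 8.5 and 7.55 CPM against 20.5, 23 and 21.8 CPM (-1.52 ± 0.12). Lhx9 was lower in Interstitial than in Leydig, at 149 and 151 CPM.

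Hox genes, which give position along the body axis, moved together. Of 31 tested 26 were higher in Leydig and 1 in Sertoli, with a median of 1.88. Hoxd3 was at 107, 87.3 and 103 CPM against 23.5, 24.1 and 24.1 CPM (1.99 ± 0.10) and Hoxd9 at 79.9, 65.9 and 76.4 CPM against 17.6, 19.2 and 16.7 CPM (1.95 ± 0.11). Hoxd11 had the largest difference (3.62 ± 0.39), at 7.34, 4.76 and 6.88 CPM against 0.561, 0.381 and 0.62 CPM. Hoxb9 ran the other way at 8.61, 8.65 and 7.74 CPM against 16.1, 19.3 and 15.6 CPM (-1.08 ± 0.13, adjusted p 0.000225). Over the whole homeobox, forkhead, SOX, GATA, T-box and KLF families, the Hox genes left out, 45 of 139 were called on the Leydig side and 31 on the Sertoli side, which is 54.7% against 37.5% of all genes.

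Ligands and receptors that signal between cords and interstitium were split between the sorts. Of 44 growth factor ligands 20 were higher in Leydig and 11 in Sertoli (median 0.40), and of 52 receptor tyrosine kinases 24 and 11 (median 0.32). On the Sertoli side stood Kitl, the ligand of KIT, at 190, 210 and 207 CPM against 546, 609 and 594 CPM (-1.57 ± 0.09), Fgf9, which sustains Sertoli fate (-1.57 ± 0.10), and Gas6, the ligand of the TAM receptors (-1.41 ± 0.09). Among receptors, the TAM receptor gene Tyro3 was at 144, 139 and 138 CPM in Leydig and 389, 391 and 372 CPM in Sertoli (-1.51 ± 0.06), and the neuregulin receptor genes Erbb4 (-1.70 ± 0.13) and Erbb3 (-1.63 ± 0.09) were higher in Sertoli too. On the Leydig side stood the ligand genes Fgf10 (2.27 ± 0.22), Ntf3 (2.14 ± 0.18) and Ptn (1.95 ± 0.14). Pdgfra, the receptor of PDGF-AA on interstitial cells, was at 723, 659 and 715 CPM against 215, 227 and 224 CPM (1.60 ± 0.07, adjusted p 1.53e-06). The gene of its ligand, Pdgfa, named after its values were seen, was at 31.3, 31.2 and 28.4 CPM against 72.7, 73.5 and 72.6 CPM (-1.27 ± 0.07), so ligand and receptor lay on opposite sides. The largest receptor differences included the endothelial genes Tie1 (3.05 ± 0.19) and Tek (2.68 ± 0.13) and the macrophage gene Csf1r (2.82 ± 0.39), beside the fibrillar collagen receptor gene Ddr2 (2.70 ± 0.20). Summed endothelial markers were at 373, 410 and 376 CPM in Leydig and 82.3, 77 and 78.2 CPM in Sertoli, and their part in this list was not tested.

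Of 16 hedgehog genes 6 were not called. The ligand gene Dhh was the 1 gene higher in Sertoli, and 9 were higher in Leydig, among them the transcription factor gene Gli1 (73.6, 59.8 and 70 CPM against 27.4, 26.4 and 25.7 CPM, 1.27 ± 0.11, adjusted p 3.77e-05), Gli2 (1.20 ± 0.10) and the co-receptor genes Gas1 (1.85 ± 0.08) and Boc (1.23 ± 0.11). The receptor and target gene Ptch1, named after its values were seen, was not among them, at 210, 198 and 210 CPM against 196, 232 and 201 CPM (-0.11 ± 0.08, adjusted p 0.329). Of 25 Notch genes 7 were called on the Leydig side and 2 on the Sertoli side, which is 36%, near the 37.5% of all genes. They included the receptor gene Notch3 of mural cells (0.81 ± 0.08) and the endothelial ligand gene Dll4 (2.81 ± 0.31) on the Leydig side and the target gene Hes5 (-1.67 ± 0.16) on the Sertoli side.

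Wnt genes were spread over both sorts, 22 of 50 higher in Leydig and 13 in Sertoli (median 0.39). Wnt5a, a non-canonical ligand of stroma, was at 309, 273 and 308 CPM against 35.9, 44.4 and 39.5 CPM (2.82 ± 0.11, adjusted p 1.21e-06). Wnt2b (3.15 ± 0.15), the inhibitor genes Dkk1 (2.12 ± 0.24) and Sfrp2 (1.67 ± 0.15) and the target gene Axin2 (0.82 ± 0.08) were also higher in Leydig. Sertoli libraries had more of the inhibitor genes Sfrp4 (-1.88 ± 0.15) and Wif1 (-1.85 ± 0.19) and of the R-spondin receptor gene Lgr5, at 30.7, 31.4 and 29 CPM in Leydig and 98.5, 110 and 103 CPM in Sertoli (-1.79 ± 0.08). Of 53 genes of TGF-beta, activin and BMP signalling 26 were higher in Leydig and 10 in Sertoli (median 0.25). The Sertoli side held the subunit genes of inhibin, Inhbb (129, 132 and 136 CPM against 408, 445 and 402 CPM) and Inha (59.9, 43.3 and 56.8 CPM against 116, 126 and 115 CPM), along with Amh, its receptor gene Amhr2 (103, 95.5 and 100 CPM against 226, 220 and 207 CPM) and Fst. Tgfb2, a cytokine gene, was higher in Leydig at 56, 52.1 and 56.5 CPM against 10.5, 10.1 and 11.1 CPM (2.35 ± 0.08), as were Id4 (2.07 ± 0.18), which encodes an inhibitor of basic helix-loop-helix factors, and the ligand gene Gdf6 (1.84 ± 0.20).

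Genes of retinoic acid synthesis, sensing and breakdown were found on both sides. Of 23 tested 10 were higher in Leydig and 5 in Sertoli (median 0.18, and 0.42, 0.39 and 0.35 without Sertoli replicate A, Leydig replicate B and Leydig replicate A). Cyp26b1, which degrades retinoic acid and shields male germ cells from it, was at 202, 185 and 203 CPM against 404, 466 and 411 CPM (-1.21 ± 0.08). The synthesis gene Aldh1a1 was higher in Sertoli too, at 486, 422 and 468 CPM against 1242, 1118 and 1187 CPM (-1.42 ± 0.09), whereas Aldh1a2 was higher in Leydig at 116, 101 and 111 CPM against 53.2, 49.3 and 51.5 CPM (1.04 ± 0.10). The binding protein gene Crabp2 (2.13 ± 0.16) and the retinaldehyde reductase gene Dhrs3 (1.13 ± 0.09) were higher in Leydig as well, and the receptor gene Rara (-0.55 ± 0.08) was higher in Sertoli.

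Genes named for axon guidance, which also steer other migrating cells and vessels, were called in 85.7% of cases, against 37.5% of all genes. Of 56 tested 28 were higher in Leydig and 20 in Sertoli (16 with library size alone). Unc5c, a netrin receptor gene, was at 146, 135 and 146 CPM against 33.8, 31.8 and 33.1 CPM (2.05 ± 0.08), and the secreted semaphorin genes Sema3d (2.64 ± 0.15) and Sema3e (2.60 ± 0.18) were higher in Leydig with it. The membrane-anchored Sema7a was at 30, 29.9 and 29.3 CPM against 86, 91.2 and 86.4 CPM (-1.61 ± 0.07), with Plxnb3 (-1.65 ± 0.15), Sema3b (-1.50 ± 0.15) and Ntn4 (-1.44 ± 0.14) beside it on the Sertoli side. Hormone and peptide receptors were more one-sided, 19 of 45 higher in Leydig and 5 in Sertoli (median 0.45; 2 in Sertoli without Sertoli replicate B and 3 without Leydig replicate B). The endothelin receptor gene Ednra was at 128, 114 and 123 CPM against 31.6, 32.9 and 31.4 CPM (1.87 ± 0.08), and the natriuretic peptide receptor gene Npr1 at 146, 140 and 144 CPM against 351, 364 and 336 CPM (-1.36 ± 0.06). Of 27 chemokine genes and receptors 10 were higher in Leydig and 3 in Sertoli, 48.1% called against 37.5% of all genes. Cxcl12, which guides germ cells and vessels, was at 233, 183 and 232 CPM against 49.3, 55.6 and 50.9 CPM (1.94 ± 0.13), more than in Interstitial at 114 and 96.5 CPM. The membrane-bound chemokine gene Cx3cl1 was higher in Sertoli (-1.23 ± 0.13). Without either Sertoli replicate 6 chemokine genes were called higher in Leydig.

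Matrix genes of connective tissue were mostly higher in Leydig. Of 39 genes for fibrillar collagens, proteoglycans and elastic fibres 26 were higher in Leydig and 4 in Sertoli (median 1.10). Col1a1 was at 252, 226 and 251 CPM against 38.5, 36.2 and 34.9 CPM (2.64 ± 0.09, adjusted p 1.21e-06) and Col3a1 at 1592, 1421 and 1526 CPM against 540, 557 and 523 CPM (1.42 ± 0.09, adjusted p 5.78e-06). The collagen crosslinking enzyme gene Lox (3.22 ± 0.18) and the proteoglycan genes Fmod (3.20 ± 0.14) and Dcn (2.78 ± 0.14) were among the largest differences. The 4 Sertoli-side genes of this list, which does not hold every fibrillar collagen gene, were Col2a1 (55.2, 66.8 and 58.1 CPM against 187, 253 and 199 CPM, -1.90 ± 0.17), Fbln2 (-1.70 ± 0.08), Col14a1 (-1.32 ± 0.08) and Sparc (-0.72 ± 0.07). Col2a1 is known as the main collagen of cartilage and as a target of SOX9 there. Basement membrane genes were mixed, 14 of 29 higher in Leydig and 5 in Sertoli (median 0.25, and 0.39 without Leydig replicate B), with Frem1 (352, 343 and 345 CPM against 59.4, 63.6 and 63.3 CPM, 2.46 ± 0.07), Col4a4 and Nid2 on the Leydig side and Smoc1 (-1.62 ± 0.06), Col18a1 and Lama3 on the Sertoli side. Of 41 matrix proteases and inhibitors 22 were higher in Leydig and 9 in Sertoli. Adamts16, a protease gene, was at 147, 167 and 152 CPM against 515, 571 and 524 CPM (-1.83 ± 0.11), and the protease inhibitor gene Serpine2 at 125, 114 and 126 CPM against 364, 372 and 367 CPM (-1.66 ± 0.07). Of 23 integrins 8 lay higher in Leydig and 4 lower, 52.2% called against 37.5% of all genes. The laminin receptor gene Itga6 was at 401, 387 and 385 CPM against 777, 759 and 810 CPM (-1.0 ± 0.06), and the collagen receptor gene Itga1 (1.90 ± 0.13) and Itga8 (1.28 ± 0.06) were higher in Leydig.

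Epithelial genes were more often higher in Sertoli. Of 30 genes for junctions, polarity and keratins 15 were higher in Sertoli and 4 in Leydig. The median was -0.54, and -0.43 and -0.86 without Leydig replicates A and B. Cldn11, the claudin of Sertoli tight junctions, was at 16.8, 15.8 and 18.1 CPM against 60.3, 54.3 and 57.7 CPM (-1.86 ± 0.12, adjusted p 6.98e-06), and the desmosome gene Dsp at 82.6, 87.9 and 87.1 CPM against 220, 228 and 228 CPM (-1.43 ± 0.08). The Leydig-side genes were the keratin genes Krt19 (3.21 ± 0.26), which is also in the mesothelial list, and Krt7 (1.27 ± 0.10), the tight junction gene Tjp1 (0.27 ± 0.06) and the polarity gene Pard3 (0.20 ± 0.07). The Pard3 call was lost without Leydig replicate B (0.18, adjusted p 0.125), Sertoli replicate A (0.17, adjusted p 0.202) or Sertoli replicate B (0.23, adjusted p 0.0862).

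Markers of the mesothelium that covers the gonad stood out in the Leydig libraries: 11 of 13 were higher in Leydig and 1, Wt1, in Sertoli (median 2.83). Upk3b, a uroplakin gene of mesothelium, was at 69.2, 60.4 and 67.1 CPM against 3.62, 4.11 and 4.18 CPM (4.03 ± 0.14, adjusted p 1.21e-06). Tm4sf5 (4.38 ± 0.21), Upk1b (4.32 ± 0.28) and Lrrn4 (3.24 ± 0.13) were likewise high, and Tm4sf5 and Upk1b had the largest differences of all genes of at least 5 CPM. Interstitial libraries had more Upk3b and Lrrn4 than Leydig, 101 and 81.5 CPM for Upk3b. Endothelial markers, from cells that the CD31 antibody should have removed, were higher in Leydig in 18 of 19 (median 2.51), and macrophage and leukocyte markers in 15 of 18 (median 3.08). Kdr, a receptor for VEGF, was at 81.3, 92.8 and 85.1 CPM against 13.5, 13 and 13.1 CPM (2.67 ± 0.09). Summed macrophage markers came to 29.3, 46.3 and 31.9 CPM in Leydig and 9.68, 10.5 and 10.6 CPM in Sertoli. Of 14 smooth muscle and pericyte markers 11 were higher in Leydig (median 1.31), with Acta2 at 66.3, 53.7 and 63 CPM against 18.2, 21.2 and 18.1 CPM (1.57 ± 0.15). The Tagln call was lost with DESeq2 (1.45, adjusted p 0.107) and without Leydig replicate B (0.96, adjusted p 0.104) or Sertoli replicate A (0.87, adjusted p 0.144). Of the 17 germ cell markers 1 was called higher in Leydig, Kit, which interstitial cells also express. The median of the 17 was 0.72, and it was -0.54 without Leydig replicate B and 1.28 without Leydig replicate A. Schwann and neuronal markers ran the other way, 5 of 15 higher in Sertoli and 2 in Leydig (median -0.59, and -0.22 without Leydig replicate B). With 46.7% called, they were not far from the 37.5% of all genes. Those 5 include Sox10 and Erbb3, which also stand in the lists of Sertoli factors and receptors. The part of any of these cells in the stromal, receptor and matrix lists was not tested.

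**Figure D5:**
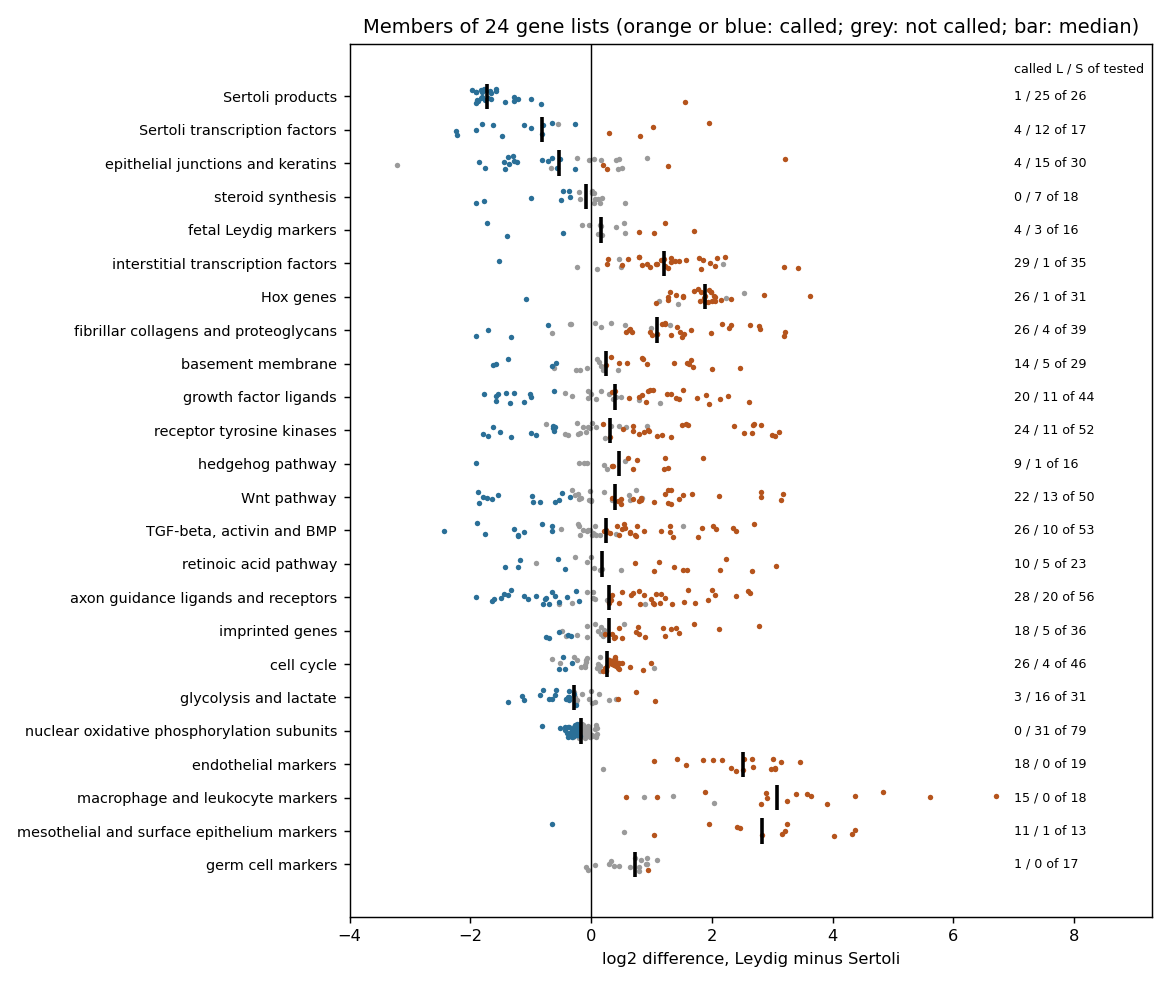
Each point is a member of 1 of 24 gene lists at its log2 difference (Leydig minus Sertoli), orange or blue where called and grey where not, with a black bar at the list's median and, at the right, the members called higher in Leydig and in Sertoli of those tested. Sertoli products cluster near -1.73, steroid synthesis straddles 0, and interstitial factors, Hox genes and markers of mesothelium, endothelium and macrophages lie to the right.

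Of 36 imprinted genes 18 were higher in Leydig, 5 were higher in Sertoli and 13 were not called (median 0.29). With library size alone the counts were 20 and 2, and in Sertoli 2 were called without Leydig replicate B and 3 without any of the other 3 libraries in turn. Igf2, the fetal growth factor gene, was at 620, 557 and 621 CPM against 208, 206 and 191 CPM (1.46 ± 0.11), its neighbour H19 at 1750, 1481 and 1654 CPM against 682, 668 and 667 CPM (1.22 ± 0.10), Mest at 926, 802 and 887 CPM against 342, 325 and 327 CPM (1.33 ± 0.10) and Peg3 at 2192, 2035 and 2127 CPM against 1185, 1205 and 1205 CPM (0.78 ± 0.07). None of these groups overlapped. Cdkn1c, an imprinted brake on the cell cycle, was higher in Sertoli (-0.54 ± 0.09). Of 22 genes of the IGF pathway 11 were higher in Leydig and 4 in Sertoli, and the binding protein genes Igfbp3 (1.36 ± 0.14), Igfbp4 (1.30 ± 0.12) and Igfbp5 (1.11 ± 0.07) were among the former, whereas Pappa (-1.33 ± 0.08), a protease that cleaves such proteins, was higher in Sertoli.

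Cell cycle genes differed by little but mostly one way, 26 of 46 higher in Leydig and 4 in Sertoli (median 0.26, and 0.36 with library size alone). The largest of those called were Cdc25b, a phosphatase that starts mitosis (0.99 ± 0.13) and the cyclin E gene Ccne1 (15.1, 18.6 and 15.1 CPM against 10.1, 7.86 and 8.71 CPM, 0.86 ± 0.14). The Sertoli side held the inhibitor genes Cdkn1b (-0.47 ± 0.07) and Cdkn1c, but also Cdc25a (-0.43 ± 0.08) and Aurka (-0.31 ± 0.09), which are not inhibitors. With library size alone 3 were called there. Of 58 replication-dependent histone genes 31 were higher in Leydig and 1 in Sertoli (median 0.46), and 11 and 16 were higher in Leydig without Sertoli replicates B and A. These near-identical copies can share reads, so single histone genes are uncertain.

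Genes of glycolysis leaned to Sertoli. Of 22 tested genes of the mitochondrial genome 0 were called in either direction (median -0.10, and 0.00 with library size alone). Of 31 genes of glycolysis and lactate 16 were higher in Sertoli and 3 in Leydig (median -0.28, with 13 in Sertoli by library size alone and 1 in Leydig without Sertoli replicate B). Ldhb was at 288, 280 and 289 CPM against 731, 698 and 708 CPM (-1.37 ± 0.06), Hk1, which starts glycolysis, at 56.5, 54.9 and 59.3 CPM against 115, 117 and 117 CPM (-1.11 ± 0.08), and the enolase gene Eno1 at 386, 380 and 390 CPM against 692, 649 and 639 CPM (-0.85 ± 0.06). Of 79 nuclear genes of oxidative phosphorylation 39.2% were called, near the 37.5% of all genes. The Leydig side had 0 of these calls and the Sertoli side 31, with a median of only -0.17. That count fell to 10 with library size alone, to 10 without Leydig replicate B and to 7 without Sertoli replicate A. Cholesterol synthesis and uptake were split, 7 of 35 higher in Leydig and 11 in Sertoli, 51.4% called against 37.5% of all genes. Their median was -0.00, and 0.10 with library size alone. Of 298 solute carriers 46.3% were called, against 37.5% of all genes, 95 higher in Sertoli and 43 in Leydig (77 and 50 with library size alone). The Sertoli side held Slc9a2, Slc47a2, the phosphate carrier gene Slc34a2 (-1.79 ± 0.17) and the dicarboxylate carrier gene Slc13a2 (-1.73 ± 0.14). The Leydig side held the sodium-calcium exchanger gene Slc8a1 (52, 46.1 and 48.9 CPM against 16.8, 19 and 18 CPM, 1.41 ± 0.10). Ribosomal protein genes differed little, 6 of 88 called higher in Leydig with a median of 0.05, 22 called with library size alone, and 1 and 2 without Sertoli replicates A and B.

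Genes tied to the ovary and to disorders of sex development were also examined, the latter because the study's title names such disorders. Of 19 pro-ovarian genes 9 were higher in Sertoli and 4 in Leydig (median -0.62). The 9 included Fst, Irx3, Lgr5 and Runx1 and the 4 included Lef1 (1.27 ± 0.10) and Axin2. In the list for these disorders, 17 of 39 genes were higher in Sertoli and 5 in Leydig (median -0.23, and -0.14 without Leydig replicate B). The Leydig side included Zfp503 (61.3, 58.3 and 72.9 CPM against 18.4, 17.5 and 19.1 CPM, 1.69 ± 0.07), Cbx2, Fgfr2 (84, 80.3 and 78.5 CPM against 51, 47.1 and 48.2 CPM, 0.70 ± 0.08) and Rxfp2, the receptor of the testis descent hormone INSL3, at 5.06, 4.7 and 5.63 CPM against 0.729, 0.293 and 0.458 CPM (3.19 ± 0.32, adjusted p 8.77e-05).

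Calls were fewer outside protein-coding genes. The share called also rose with level, from 17% of genes under 1 CPM to 43.3% at 10 to 100 CPM. The gene classes were not matched for level. Of 15157 protein-coding genes 42% were called, of 419 lincRNAs 19.1%, of 401 antisense genes 19.2%, of 830 pseudogenes 10.4% and of 210 snoRNAs 2.86%. Antisense genes and genes that overlap them can share reads, since it is not stated whether counting used strand. Of 148 microRNA genes 6 were called higher in Leydig and 6 in Sertoli. These libraries hold long RNA, so such counts are reads over hairpin loci, and reads of a primary transcript or of a host gene cannot be told from those of the hairpin. All of them were low, at most 5.23 CPM. Mature sequences, 1 arm each, are shown for 6 called loci, chosen because each has a RefSeq entry and lies on the same strand inside a host gene that was called in the same direction. Of the other called loci, Gm26050 in Dtnb (-1.68 and -1.04) and Gm26301 in Cdh11 (1.69 and 1.74) also went with their hosts, whereas Gm22655 (-2.44) lies in Anapc15, which was not called (-0.09, adjusted p 0.536). The 6 mature sequences are written 5′ to 3′ from RefSeq (GRCm38.p6) with the seed, bases 2 to 8, in capitals, and no seed is shared among them.
mmu-miR-140-3p: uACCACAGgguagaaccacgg
mmu-miR-455-5p: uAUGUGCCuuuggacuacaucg
mmu-miR-3067-5p: aGUUCUCAggcccgcuguggugu
mmu-miR-335-5p: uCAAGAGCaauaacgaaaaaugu
mmu-miR-218-5p: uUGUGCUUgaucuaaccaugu
mmu-miR-615-3p: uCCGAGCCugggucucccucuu

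The locus of Mir140 (chr8:107551244-107551313, plus strand, GRCm38) was at 0.542, 0.548 and 0.487 CPM in Leydig and 1.21, 1.09 and 1.51 CPM in Sertoli (-1.11 ± 0.29, adjusted p 0.0148), and its host Wwp2, a ubiquitin ligase gene, at 64.7, 65.9 and 63.4 CPM against 115, 117 and 112 CPM (-0.87 ± 0.06). Mir455 (chr4:63256851-63256932, plus strand) differed by -1.38 ± 0.38 (adjusted p 0.0207), and its host Col27a1, a fibrillar collagen gene, by -1.45 ± 0.08, at 156, 164 and 159 CPM against 391, 456 and 411 CPM. Mir3067 (chr12:81166151-81166234, plus strand) differed by -1.29 ± 0.42 (adjusted p 0.041) inside Smoc1. On the Leydig side, Mir335 (chr6:30741299-30741396, plus strand) was at 2.89, 2.62 and 3.47 CPM against 1.01, 1.32 and 1.27 CPM (1.20 ± 0.23, adjusted p 0.00321) inside the imprinted Mest. Mir218-1 (chr5:48223942-48224051, plus strand) differed by 1.56 ± 0.53 (adjusted p 0.0458) inside the guidance gene Slit2 (1.34 ± 0.08), and Mir615 (chr15:103014910-103015001, plus strand) by 1.49 ± 0.48 (adjusted p 0.0372) inside Hoxc5 (1.77 ± 0.13). At these low counts the hairpin calls were weak: DESeq2 gave adjusted p values of 0.132 for Mir140, 0.138 for Mir455, 0.183 for Mir218-1, 0.258 for Mir3067 and 0.268 for Mir615, and only Mir335 of the 6 passed under every alternative run.

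Promoters were searched for short motifs of factors named above. The 250 bases before a start site were searched, in RefSeq windows that matched 12408 of the 18048 genes, 15796 windows in all. The SF1 motif AAGGTCA, on either strand, was in 3.11% of all windows, in 2.55% of those of genes called 2-fold or more higher in Leydig and in 4.23% of those called so in Sertoli. For the GATA motif AGATAA the shares were 6.3, 5.89 and 7.21%, for the SOX motif ACAATG 6.7, 7.04 and 8.37%, and for the GLI motif CCACCCA 8.69, 10.3 and 8.75%. These are descriptions with no test, and a match is not a binding site. The upstream windows of Amhr2, Sema5a and Itm2a, chosen after the values were seen, are printed as examples 5′ to 3′ on the gene's strand, with the SF1 motif in capitals in Amhr2 and Sema5a and the GLI motif in Itm2a. Left in lower case are the GLI motif's reverse complement TGGGTGG in Sema5a and the GATA motif's, TTATCT, in Itm2a.
Amhr2: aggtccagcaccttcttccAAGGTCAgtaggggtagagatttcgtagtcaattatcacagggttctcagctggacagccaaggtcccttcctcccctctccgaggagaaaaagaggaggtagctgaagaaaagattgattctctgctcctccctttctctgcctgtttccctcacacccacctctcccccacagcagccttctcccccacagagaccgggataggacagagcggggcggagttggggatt
Sema5a: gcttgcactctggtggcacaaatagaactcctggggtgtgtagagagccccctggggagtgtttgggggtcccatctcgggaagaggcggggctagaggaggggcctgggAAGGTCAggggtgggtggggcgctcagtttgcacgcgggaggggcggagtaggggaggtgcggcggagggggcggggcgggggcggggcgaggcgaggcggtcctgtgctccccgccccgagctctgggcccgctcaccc
Itm2a: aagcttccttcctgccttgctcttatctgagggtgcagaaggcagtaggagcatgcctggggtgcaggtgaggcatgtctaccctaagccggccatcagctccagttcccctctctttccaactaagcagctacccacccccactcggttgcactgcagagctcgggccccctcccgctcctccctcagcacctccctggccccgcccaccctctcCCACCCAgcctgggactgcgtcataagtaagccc

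Amhr2 (window chr15:102445117-102445366, plus strand) encodes the receptor of anti-Müllerian hormone and differed by -1.21 ± 0.06 (adjusted p 2.59e-06). Its motif begins 231 bases upstream of the start site. Sema5a (chr15:32244563-32244812, plus strand), a semaphorin gene, was at 161, 157 and 164 CPM in Leydig and 306, 336 and 303 CPM in Sertoli (-1.05 ± 0.10, adjusted p 6.47e-05), with the motif 140 bases upstream. Itm2a (chrX:107403361-107403610, minus strand), a membrane protein gene, was higher in Leydig at 122, 122 and 123 CPM against 59.1, 53.4 and 57.5 CPM (1.07 ± 0.12, adjusted p 0.000134), with the motif 34 bases upstream.

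The authors' deposited table for this comparison lists 1932 genes, 1079 higher in Leydig and 853 in Sertoli, each at least 2-fold. All 1932 were tested here and had the same sign, and 1796 of them (93% of the authors' deposited table and 72.5% of the 2477 called at least 2-fold here) passed the same size and threshold. The median gap between the log2 values of the authors' deposited table and those here was 0.073. The log2 values in the authors' deposited table reach from -2.35 to 4.85, with no floor of 5 CPM applied here. That table rests on the same libraries, so it is no separate evidence for the asymmetry of sizes.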

How the data were processed

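Reads were aligned with TopHat2 2.0.6 to mm10 and counted with HTSeq, and limma was used downstream, per the submitters' processing notes. The deposited table holds raw counts per gene and lane for the 9 libraries. Libraries were made from ribosome-depleted total RNA with a stranded kit, per the labels' protocols. Neither the annotation used for counting nor its strandedness is stated in the sources used here. Reads in no gene, 32.3 to 38.5% per library used, were left out. Gene symbols came from GENCODE M21 (36722 of 38560 genes) and for 15 more from the authors' table. The authors' deposited table of this comparison gives log2 fold changes, p-values and moderated statistics (a score). Only its log2 values and gene list were used.

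The 4 lanes of a library were summed. Replicates A and B of the Leydig, Sertoli and Interstitial populations (6 libraries, 3 residual degrees of freedom) were fitted together in edgeR 4.0.16 under R 4.3.3 (TMM, filterByExpr, glmQLFit and glmQLFTest), and 18048 genes passed the filter. The fit had a common biological coefficient of variation of 0.0871, with 5.53 prior degrees of freedom. A gene was called at a Benjamini-Hochberg adjusted p under 0.05 over all tested genes. SE is the absolute log2 difference over the square root of F. Because each library pools many litters and n = 2, the p-values speak of differences among pools, not among animals. Alternatives used DESeq2 1.42.0, limma 3.58.1, other scalings, filters, lanes and library sets. The code was checked on simulated data.

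Genes, gene lists and tests were chosen with earlier results of these data known. Named genes are the 15 largest log2 differences per direction among called genes that reached 5 CPM where higher and whose A and B libraries did not overlap, the 10 largest CPM differences per direction outside the mitochondrial genome, up to 4 called members per list and direction with at least 5 CPM plus each list's defining members, and the cell type genes plotted by library. Not all of these are printed, and some genes are not reported here. Aldh1a2, Amhr2, Dazl, Itm2a, Kdr, Krt19, Pdgfa, Ptch1, Ptgs1, Rxfp2, Sema5a, Sry, the microRNA loci and their hosts Wwp2, Col27a1, Slit2, Hoxc5, Dtnb, Cdh11 and Anapc15 fall outside that rule and were named after their values were seen.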

Additional observations from a re-analysis of the deposited data

How the results depend on the processing

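Across 17 alternatives the number of genes called ran from 4703 without Sertoli replicate A to 9160 with all 9 libraries, against 6762. Calls higher in Leydig numbered 4714 with all 9 libraries, against 3053. That run counts C as a further replicate although C shares its RNA with A and B, so its p-values come out too small. The part of this in the higher counts was not tested. Counts of genes called at least 2-fold in either direction stayed within 1.5 times of the values above. Over the runs that each left out 1 library, calls ranged from 4703 to 6307. Of 178 named genes that were followed through the alternatives, 156 kept their call and sign in every run that tested them. Most were named for large differences in the main fit, so this does not speak for the 6762 calls as a whole. With library size alone 5858 of the 6762 calls were shared. With the replicate block 7839 genes were called, 6753 of them shared with the 6762. Nothing in the labels ties equal letters together. The correlation of the A minus B deviations over 18048 genes was 0.0172 for Leydig and Sertoli, 0.248 for Leydig and Interstitial and 0.0996 for Sertoli and Interstitial, so the letters were not taken to pair the samples, although erythroid and immediate early genes were high in both B libraries. With the block 9 immediate early genes were called higher in Sertoli, against 2.

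Signs turned for genes that were not called. Without Leydig replicate A these were Star (-0.19), Cyp11a1 (-0.52), Cyp17a1 (-0.10), Hsd3b1 (-0.32) and Lhcgr (-0.07). Without Sertoli replicate B they were Cyp11a1 (-0.01), Hsd3b1 (-0.03), Insl3 (-0.25) and Ptch1 (0.01). Insl3 was at -0.26 with lanes 1 and 2 alone, Anapc15 at 0.01 there, with library size alone and without Leydig replicate A, and Dazl at -0.49 without Leydig replicate B, and the cause was not tested. Leaving out 1 library moved the log2 difference from -0.52 to 0.65 for Cyp11a1, -0.10 to 1.06 for Cyp17a1, -0.32 to 0.49 for Hsd3b1, -0.07 to 0.83 for Lhcgr, -0.19 to 0.53 for Star, -0.25 to 0.74 for Insl3, -0.49 to 1.61 for Dazl, -0.23 to 0.01 for Ptch1 and -0.15 to 0.01 for Anapc15. At the depth of these libraries, a count of 0 could stand for a level of up to 0.0903 CPM. With n = 2 pools per population, a difference that missed the threshold does not show that the populations were alike.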
